A study of Rattus norvegicus with 4 samples.

Results

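Voltage-gated calcium and sodium channels were followed in carotid bodies (CBs) of neonatal and adult rats. The CB, which lies where the carotid artery divides, senses the oxygen of arterial blood. All genes whose symbol names a pore-forming (alpha) or auxiliary subunit of these channels were taken by a rule on the symbol that uses no measured value. This gave 40 of the 32883 genes in the table, of which 26 encode calcium channel subunits (10 alpha-1, 4 alpha-2/delta, 4 beta and 8 gamma) and 14 encode sodium channel subunits (10 alpha and 4 beta). Polyadenylated RNA, selected by the paper's methods from total RNA of CBs from Sprague Dawley rats, was sequenced at day 5 (neonates) and day 21 (adults). There were 2 libraries for each age and no treatment at either age. Each library pools the CBs of 6 pups or 3 adults by the labels. Pool sizes are stated differently in the paper, so they are uncertain. The paper also states 3 biological replicates per age, against the 2 libraries per age available here. Females and males were pooled, so sexes cannot be told apart.

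Voltage-gated calcium channels open when the membrane depolarizes and let calcium into the cell. In glomus cells, the oxygen-sensing cells of the CB, this calcium entry triggers the release of transmitter onto the sensory nerve endings. The alpha-1 subunit forms the pore and sets the type, with L-, P/Q-, N- and R-type channels opening at strong depolarization and T-type channels near the resting potential. The alpha-2/delta and beta subunits bring the pore to the membrane and tune its gating, while most gamma subunits are better known as partners of glutamate receptors. Voltage-gated sodium channels carry the upstroke of the action potential, and their beta subunits tune gating and bind to other cells. Levels are given as CPM, estimated counts scaled to a common library total, after TMM normalisation for library composition. Log2 fold changes are neonate over adult, so that a negative value means a higher level in adults, with standard error (SE) and a Benjamini-Hochberg adjusted p over all genes from edgeR's quasi-likelihood test. In bulk RNA, fewer cells of a type and less RNA per cell cannot be told apart.

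The libraries held from 36286191 to 39476110 estimated counts, and 3 counts, taken as the floor of detection, correspond to 0.0760 to 0.0827 CPM before TMM. This floor covers counting error only. For 2 libraries against 2, the smallest two-sided p of an exact permutation test is 0.333, so the adjusted p rest on edgeR's shared estimate of spread. The 2 neonatal libraries stand apart from each other. The parathyroid markers Pth and Gcm2 were at 1773 and 22.2 CPM in neonate replicate 1, at 208 and 3.03 CPM in neonate replicate 2 and at 0 counts in both adult libraries. The Schwann cell and glia markers summed to 1470 and 2853 CPM in the neonatal libraries and to 2487 and 2674 CPM in the adult libraries. All 10 glomus cell markers were detected, with 4 higher and 3 lower in neonates. Their summed levels were 4378 to 5717 CPM in neonates and 4174 to 5020 CPM in adults. The highest sum, in neonate replicate 1, included 1 marker at 1725 CPM there and at 661 to 793 CPM in the other libraries. Of the 10 neuron markers, 9 were higher in neonates (edgeR adjusted p under 0.05), with sums of 3021 to 3293 CPM against 1940 to 2302 CPM. Of the 8 smooth muscle markers, 5 were lower in neonates and 1 was higher. The 9 skeletal muscle markers matched summed to 18.01 to 25.9 CPM, and 0 of the 4 tested passed edgeR's adjusted p, with 1 (Acta1) under an unadjusted p of 0.05. Higher and lower in neonates were 1 and 3 of 7 endothelial markers, 1 and 1 of 2 lymphocyte markers tested, and 1 and 2 of 3 adipocyte markers. The part of these cell types in the results on the channels was not tested.

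The test covered the 29 of 40 subunit genes with 1 CPM or more in 2 or more libraries. Of these, 9 rose and 11 fell in neonates relative to adults at an edgeR adjusted p under 0.05, while the share over all 13843 genes tested was 31.2% higher and 31.1% lower, or 62.3% in either direction. At a fold change of at least 2, 3 were higher (Cacna1h, Cacng4 and Scn1a) and 7 were lower (among them Cacna2d1, Cacna2d4, Cacnb4, Cacng3, Scn7a and Scn2b), or 10.3% and 24.1% of those tested, against 7.68% and 13.2% of all genes tested, 20.8% in either direction. Of these 10 genes, 5 reached 1 CPM (before TMM) in libraries of one age alone. These were 4 in adults (Cacna2d4, Cacnb4, Cacng3 and Scn2b) and Scn1a in neonates. Such genes could enter the test only by differing. Among the 24 subunits that reached 1 CPM at both ages, 2 were higher and 3 lower by that rule, or 8.33% and 12.5%. In either direction, 62.5% of these 24 passed the adjusted p. The all-gene shares above also count genes that reached 1 CPM at one age alone. Shares over genes at both ages were not computed, so these 24 have no like share beside them. Neonatal and adult libraries did not overlap for 23 of the 29 subunits, or 79.3%, against 83.0% of all genes tested. The median log2 fold change was -0.093 over the 29 subunits and -0.0029 over all genes tested. Over the 24 subunits that reached 1 CPM at both ages it was 0.091, so its sign depends on the genes that reached 1 CPM at one age alone. Over the 29 subunits tested, 69% passed the adjusted p in either direction, against 62.3% of all genes tested. In 5 of the 8 classes, all but the calcium channel pores, genes differed in opposite directions. The shares over all genes tested were near equal, 31.2% higher and 31.1% lower, so mixed directions are not particular to these classes. In the sodium channel alpha class the only higher gene was Scn1a, which reached 1 CPM in neonates alone. In the alpha-2/delta class it was Cacna2d2, at 1.21-fold. The lower genes of the gamma class were Cacng3, which reached 1 CPM in adults alone, and Cacng7, at a log2 fold change of -0.47.

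**Figure D1:**
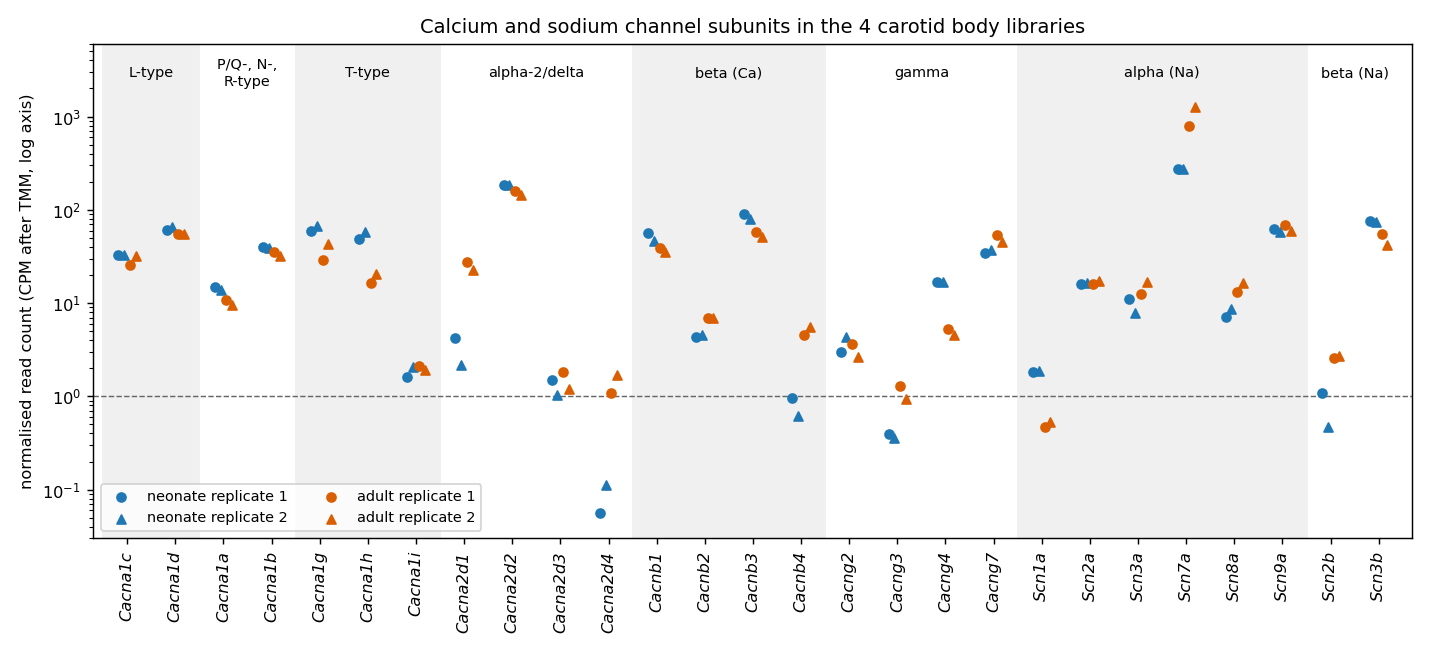
Normalised read count (CPM after TMM, log axis) of 27 of the 29 subunit genes tested, by class, with 1 point per library (blue neonates, orange adults, circles replicate 1, triangles replicate 2). The dashed line marks 1 CPM. Cacna2d1, Cacna2d4, Cacnb4 and Scn7a show the widest gaps with adults above neonates, and Cacna1h, Cacng4 and Scn1a the widest with neonates above adults.

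**Figure D2:**
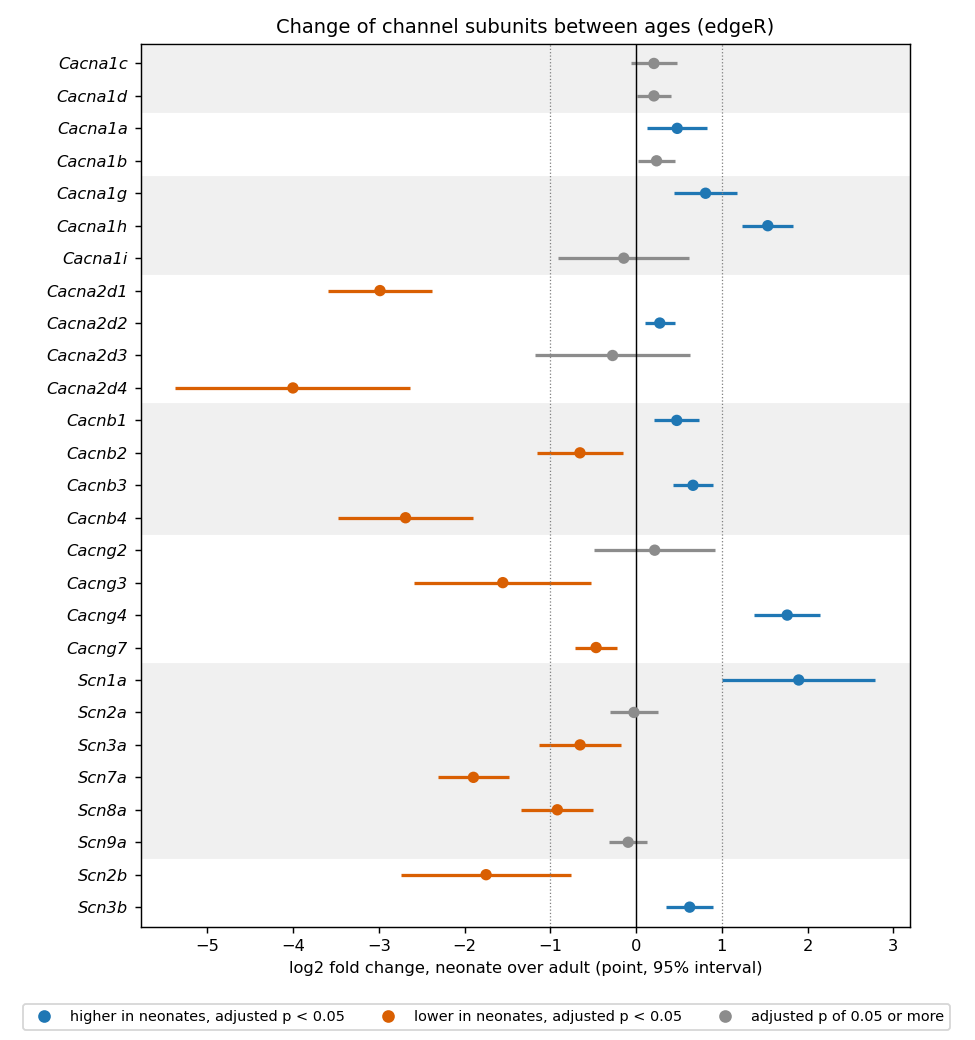
Log2 fold change, neonate over adult, of 27 of the 29 subunit genes tested (point) with its 95% interval from edgeR (line). Blue marks genes that rose in neonates and orange those that fell (adjusted p under 0.05), grey the others, and dotted lines mark a fold change of 2. Every class plotted but the L-type, P/Q-, N- and R-type and T-type pores holds genes that moved in opposite directions.

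Of the calcium channel pores, 2 of the 3 T-type genes were higher in neonates, and the L-type and N-type genes did not pass the test. Cacna1h (ENSRNOG00000033893), a T-type pore, was at 49.1 and 57.9 CPM in the neonatal libraries and at 16.4 and 20.5 CPM in the adult libraries. The lowest neonatal value thus lay more than 2-fold above the highest adult value. The log2 fold change was 1.54 (SE 0.13, edgeR adjusted p = 2.28e-05), or 2.90-fold. Cacna1g (ENSRNOG00000060528), the T-type pore known for pacemaking in thalamus and heart, was at 59.5 and 67.2 CPM in neonates and at 29.2 and 43.1 CPM in adults. The ages did not overlap, although the adult libraries differed from each other by more than the neonatal ones, and the log2 fold change was 0.81 (SE 0.16, edgeR adjusted p = 0.00241), or 1.75-fold. The third T-type pore, Cacna1i, which is best known from neurons, stayed low at 1.61 and 2.06 CPM in neonates and 2.14 and 1.92 CPM in adults. Its libraries overlapped between ages, and the 95% interval of its log2 fold change ran from -0.91 to 0.62 (edgeR adjusted p = 0.73). Summed over the 3 genes, T-type CPM were 110.3 and 127 in neonates and 47.7 and 65.5 in adults, a description with no test. The ratio of Cacna1h to Cacna1g counts was 0.826 and 0.861 in the neonatal libraries and 0.562 and 0.476 in the adult libraries, so within the T-type counts Cacna1h had the larger drop. Pairs for this and the later ratios were chosen after their values were seen, so the ratios restate differences of the single genes.

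L-type pores carry most of the depolarization-evoked calcium current described in rat glomus cells. Cacna1d, the L-type pore common in neuroendocrine cells, was at 61.5 and 65.6 CPM in neonates and 54.6 and 55.4 CPM in adults. The difference missed the threshold, with a log2 fold change of 0.21 (SE 0.088, edgeR adjusted p = 0.065) and a 95% interval from 0.0092 to 0.41. Cacna1c, the L-type pore of heart and vascular muscle, was at 33.0 CPM in both neonatal libraries and at 25.5 and 31.7 CPM in adults (log2 fold change 0.21, SE 0.12, edgeR adjusted p = 0.15). Without adult replicate 2, Cacna1c was at 0.37 with an edgeR adjusted p of 0.034. The interval of Cacna1c from all libraries, -0.059 to 0.47, leaves no room for a 2-fold change in either direction, and neither does that of Cacna1d. The other L-type genes, Cacna1s of skeletal muscle and Cacna1f of the retina, had at most 4 and 33 counts in any library and were not tested.

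Among the pores of presynaptic channels, Cacna1a (P/Q-type) rose in neonates and Cacna1b (N-type) did not pass. Cacna1a was at 14.8 and 13.7 CPM in neonates and 10.9 and 9.55 CPM in adults, without overlap, with a log2 fold change of 0.48 (SE 0.15, edgeR adjusted p = 0.023). Its adjusted p was 0.061 without neonate replicate 1, at 0.42, and 0.15 without adult replicate 2, at 0.39. Scaled to library size alone it was 0.20, at 0.23, but that scaling moved the median over all genes from -0.0029 to -0.25 on the log2 scale, so values under it carry this common shift. Cacna1b was at 40.3 and 39.1 CPM in neonates and 35.5 and 31.8 CPM in adults, with a log2 fold change of 0.24 (SE 0.096, edgeR adjusted p = 0.056) and an interval from 0.020 to 0.46. Cacna1e (R-type) had 19 to 30 counts in each library and was not tested. Summed over the 7 pores other than the T-type, CPM were 150.5 and 153 in neonates and 127 and 130 in adults.

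The alpha-2/delta subunits are large proteins outside the membrane that carry the pore to the cell surface. They included the 2 largest fold changes of the 29 subunits tested, both toward adults. The largest, of Cacna2d4, belongs to a gene that reached 1 CPM in adults alone and so could be tested only by differing. Cacna2d1 (ENSRNOG00000033531), found in muscle and many neurons, was at 4.20 and 2.17 CPM in neonates and at 27.8 and 22.8 CPM in adults. Both adult libraries lay far above both neonatal libraries, and the log2 fold change was -2.99 (SE 0.27, edgeR adjusted p = 2.72e-05), or 7.93-fold higher in adults. Cacna2d4 (ENSRNOG00000008031), best known from the retina, had 2 and 4 counts in the neonatal libraries and 44 and 68 counts in the adult libraries (log2 fold change -4.00, SE 0.60, edgeR adjusted p = 0.000461). With so few neonatal counts the ratio is loose, 16.6-fold with an exact 95% counting interval from 7.38 to 46.1. Cacna2d2 (ENSRNOG00000015835) moved slightly the other way. It was at 183 and 185 CPM in neonates and 159 and 145 CPM in adults, with a log2 fold change of 0.28 (SE 0.078, edgeR adjusted p = 0.013), but it did not pass without adult replicate 2 (0.21, adjusted p = 0.084) or, with the common shift, scaled to library size alone (0.032, adjusted p = 0.76). Cacna2d3 did not pass, at 1.49 and 1.03 CPM in neonates and 1.84 and 1.21 CPM in adults (edgeR adjusted p = 0.57). The 95% interval of its log2 fold change, from -1.18 to 0.63, leaves room for a 2-fold change toward adults. The class sum was 189 CPM in both neonatal libraries and 190 and 171 CPM in adults, so the ages overlapped in their sum while its makeup differed. Cacna2d1 took 2.22% and 1.15% of the alpha-2/delta counts in neonates and 14.6% and 13.3% in adults, and the ratio of Cacna2d2 to Cacna2d1 counts dropped from 43.6 and 85.4 to 5.73 and 6.38. In both, counts are not corrected for transcript length, so they bear on the change with age and not on which protein is the more abundant.

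Promoters are shown for the alpha-2/delta genes that moved apart, Cacna2d1 and Cacna2d2, both of which are in the RefSeq promoter table. They come from RefSeq on the GRCr8 build, another build than the one used for mapping, and run from 250 bases before to 50 bases after the start, 5′ to 3′ on the gene's strand, with GGGCGG or its reverse complement in capitals. For Cacna2d1 the first of the listed starts was used, chr4:20330098-20330397 on the minus strand, and Cacna2d2 lies at chr8:116950856-116951155 on the plus strand.
Cacna2d1: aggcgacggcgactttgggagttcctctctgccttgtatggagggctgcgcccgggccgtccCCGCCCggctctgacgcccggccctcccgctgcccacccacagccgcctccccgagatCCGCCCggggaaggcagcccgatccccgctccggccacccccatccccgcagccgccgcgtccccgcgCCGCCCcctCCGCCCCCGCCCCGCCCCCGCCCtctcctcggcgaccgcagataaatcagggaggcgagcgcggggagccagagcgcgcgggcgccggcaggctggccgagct
Cacna2d2: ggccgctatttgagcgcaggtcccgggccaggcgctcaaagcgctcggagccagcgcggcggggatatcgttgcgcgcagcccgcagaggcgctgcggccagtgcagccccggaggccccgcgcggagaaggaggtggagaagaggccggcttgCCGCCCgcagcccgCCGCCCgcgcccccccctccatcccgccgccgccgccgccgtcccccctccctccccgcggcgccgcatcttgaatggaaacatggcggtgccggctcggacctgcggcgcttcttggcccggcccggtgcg
Both windows are rich in CG dinucleotides, 41 and 44 of them, at 78.3% and 77% G and C, against a median of 7 and 52.3% over all 27457 promoters listed. GGGCGG, read on either strand with overlapping matches counted, occurred 7 times in the Cacna2d1 window and 2 times in that of Cacna2d2. Over the 27 subunit genes with a promoter in the table, 14 held GGGCGG, while 34.9% of all promoters did. TATAAA was found for 2 of the 27 and in 14.3% of all promoters, and the cAMP response sequence TGACGTCA for 0 of the 27 and in 1.91%. These are matches of letters and no evidence of binding.

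The cytoplasmic beta subunits of calcium channels, which mask a retention signal on the pore and set its gating, split evenly. Cacnb3 was at 91.3 and 79.6 CPM in neonates and 57.3 and 50.6 CPM in adults, with a log2 fold change of 0.66 (SE 0.10, edgeR adjusted p = 0.000535), or 1.58-fold. Cacnb1, the beta subunit that skeletal muscle also uses, was at 56.6 and 46.5 CPM in neonates and 38.9 and 35.4 CPM in adults (log2 fold change 0.47, SE 0.11, edgeR adjusted p = 0.0062). Scaled to library size alone, with the same shift, Cacnb1 was at 0.23 with an edgeR adjusted p of 0.098. Cacnb4 (ENSRNOG00000007666), known from cerebellum, moved the other way and by far more. It was at 0.957 and 0.612 CPM in neonates and 4.56 and 5.59 CPM in adults, and entered the test through the adult libraries alone. Its log2 fold change was -2.69 (SE 0.35, edgeR adjusted p = 0.000185), or 6.45-fold higher in adults. Cacnb2, the main beta subunit of heart, was at 4.28 and 4.59 CPM in neonates and 6.99 and 6.98 CPM in adults (log2 fold change -0.65, SE 0.22, edgeR adjusted p = 0.028). Its adjusted p was 0.13 when either adult library was left out. The ratio of Cacnb3 to Cacnb4 counts was 95.3 and 130 in neonates and 12.5 and 9.04 in adults. The class sum was 153 and 131 CPM in neonates and 108 and 98.5 CPM in adults.

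Of the 8 gamma genes, 4 were tested. Cacng4 (ENSRNOG00000003262), which regulates AMPA-type glutamate receptors, was at 16.9 and 16.8 CPM in neonates and 5.33 and 4.59 CPM in adults. Replicates lay close together at each age, and the log2 fold change was 1.76 (SE 0.17, edgeR adjusted p = 4.10e-05), or 3.39-fold higher in neonates. Cacng7, of the same AMPA receptor group, was at 34.2 and 37.2 CPM in neonates and 53.3 and 45.4 CPM in adults (log2 fold change -0.47, SE 0.11, edgeR adjusted p = 0.0047), and at -0.35 with an adjusted p of 0.053 without adult replicate 1. Cacng3 had 14 and 13 counts in neonates and 53 and 37 in adults, and entered the test through the adult libraries alone. Its log2 fold change was -1.56 (SE 0.46, edgeR adjusted p = 0.015), with an adjusted p of 0.15 without adult replicate 1 and 0.060 by DESeq2. Cacng2, or stargazin, overlapped between ages at 2.99 and 4.37 CPM in neonates and 3.66 and 2.67 CPM in adults (edgeR adjusted p = 0.57, interval from -0.49 to 0.93). The ratio of Cacng7 to Cacng4 counts was 2.02 and 2.22 in neonates and 10 and 9.91 in adults. The gamma genes not tested were Cacng5, with 17 to 59 counts, and Cacng1 of skeletal muscle, Cacng6 and Cacng8, with at most 8 counts in any library.

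**Figure D3:**
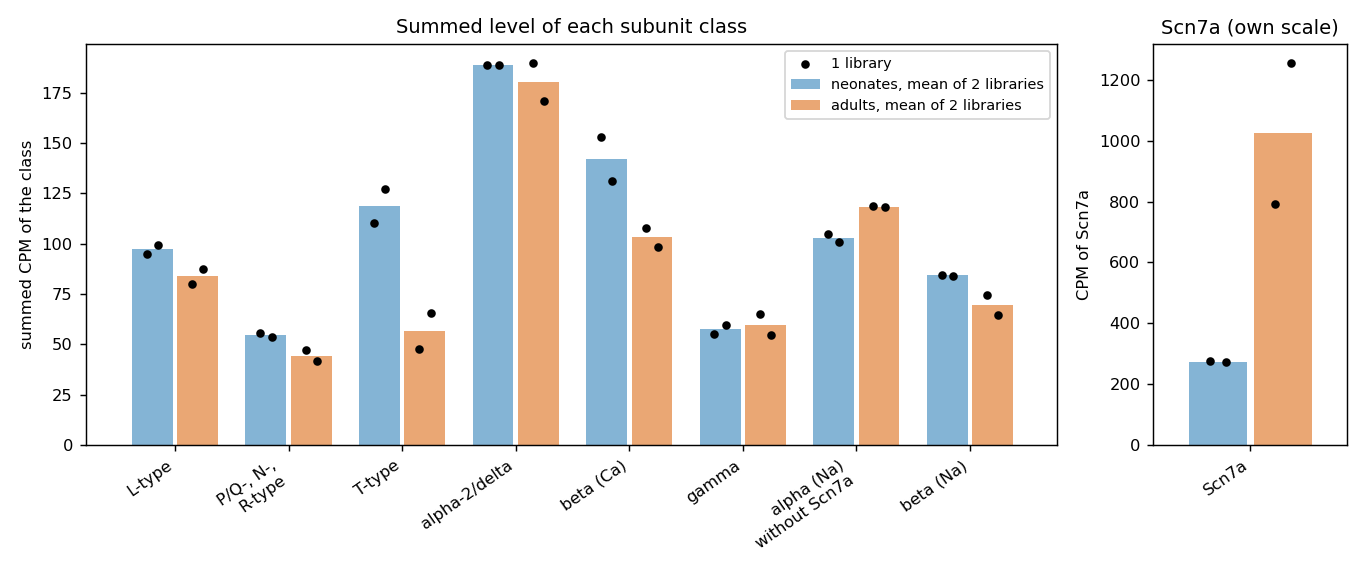
Summed CPM of each subunit class (left) and CPM of Scn7a on its own scale (right), as means of the 2 libraries per age (bars from 0) with each library as a point. The T-type sum is lower in adults, at 47.7 and 65.5 CPM against 110.3 and 127 CPM, the sodium channel alpha sum without Scn7a is 101 to 105 CPM in neonates and 118 to 119 CPM in adults, and Scn7a is higher in adults.

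Among sodium channel pores, Scn7a rose in adults, Scn8a and Scn3a rose less, Scn1a fell, and Scn2a and Scn9a did not pass the test. Scn7a (ENSRNOG00000029342) encodes an atypical member that senses extracellular sodium rather than voltage and is known from glia, including Schwann cells of peripheral nerve. It was at 276 and 273 CPM in neonates and at 793 and 1255 CPM in adults. The neonatal libraries were nearly equal, the adult libraries spread widely, and both adult values exceeded the neonatal ones by more than 2-fold. The log2 fold change was -1.90 (SE 0.18, edgeR adjusted p = 4.08e-05), or 3.73-fold higher in adults. Scn7a made up 72.5% and 73.0% of the sodium channel alpha counts in neonates and 87.0% and 91.4% in adults. Without it the alpha sum was 105 and 101 CPM in neonates and 119 and 118 CPM in adults. The Schwann cell and glia markers beside it did not move as a list. Of 9 tested, 2 were lower in neonates (Cdh19 among them), 1 was higher (Sox10) and 6 did not pass (edgeR adjusted p under 0.05), and the summed level lay below both adult libraries in neonate replicate 1 and above both in neonate replicate 2.

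Of the voltage-gated pores, Scn8a and Scn3a had smaller changes than Scn7a. Scn8a, the pore concentrated at nodes of Ranvier in mature axons, was at 7.07 and 8.60 CPM in neonates and 13.2 and 16.5 CPM in adults. The ages did not overlap and the log2 fold change was -0.92 (SE 0.19, edgeR adjusted p = 0.00233), or 1.89-fold higher in adults. Scn3a, known as an early pore of the brain, was at 10.955 and 7.91 CPM in neonates and 12.6 and 17.0 CPM in adults (log2 fold change -0.65, SE 0.21, edgeR adjusted p = 0.023). It was at -0.43 with an adjusted p of 0.090 without neonate replicate 2, and at -0.42 with 0.21 without adult replicate 2. Scn1a (ENSRNOG00000053122), a pore of inhibitory neurons in the brain, went the other way, from 1.83 and 1.89 CPM in neonates to 0.466 and 0.529 CPM in adults. Its log2 fold change was 1.90 (SE 0.39, edgeR adjusted p = 0.00271), or 3.72-fold higher in neonates. Scn1a entered the test through the neonatal libraries alone. The ratio of Scn8a to Scn1a counts, which restates these opposite differences, was 3.84 and 4.54 in neonates and 27.7 and 31.9 in adults. Scn1a, Scn2a, Scn3a and Scn9a have estimated counts that are not whole, a sign that Salmon divided reads between similar sequences, so their levels are uncertain to that extent.

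Scn9a, the sodium channel pore of sympathetic and pain-sensing neurons and of many neuroendocrine cells, did not differ beyond its spread. It was at 62.4 and 58.2 CPM in neonates and 68.7 and 59.9 CPM in adults, with overlap between ages, and the 95% interval of its log2 fold change was -0.32 to 0.13 (edgeR adjusted p = 0.43). Scaled to library size alone it was at -0.34 with an adjusted p of 0.015. Relative to the median of all genes under that scaling, -0.25, the difference was small. Scn2a was at 16.2 and 16.6 CPM in neonates and 16.1 and 17.2 CPM in adults, with an interval from -0.30 to 0.25. For both genes a 2-fold change in either direction lies outside the interval. Scn10a and Scn11a, pores of pain-sensing neurons that resist tetrodotoxin, and Scn4a of skeletal muscle had at most 31 counts in any library and were not tested. Scn10a had 18 and 17 counts in neonates and 9 and 2 in adults.

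Scn3a and Scn2a lie side by side on chromosome 3 of the RefSeq gene table, and Scn1a, Scn9a and Scn7a follow each other after 4 other protein-coding genes. Of the cluster genes that passed, Scn3a and Scn7a were higher in adults, and Scn1a alone was lower. Scn9a, which did not pass, lies between Scn1a and Scn7a. The opposite direction thus rests on Scn1a, which entered the test through the neonatal libraries alone and has counts that are not whole. The ratio of Scn9a to Scn7a counts was 0.226 and 0.213 in neonates and 0.0866 and 0.0478 in adults. Promoters of the neighbours Scn9a and Scn7a are printed from RefSeq (GRCr8), because Scn7a passed the test and Scn9a did not. Scn9a lies at chr3:71701328-71701627 and Scn7a at chr3:71846235-71846534, both on the minus strand, and capitals again mark GGGCGG or its reverse complement.
Scn9a: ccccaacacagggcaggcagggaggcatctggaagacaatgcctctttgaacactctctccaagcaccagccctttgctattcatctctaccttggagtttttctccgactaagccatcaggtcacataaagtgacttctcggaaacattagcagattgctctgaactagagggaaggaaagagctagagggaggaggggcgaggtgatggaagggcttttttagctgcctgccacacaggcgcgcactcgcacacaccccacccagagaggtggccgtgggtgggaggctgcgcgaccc
Scn7a: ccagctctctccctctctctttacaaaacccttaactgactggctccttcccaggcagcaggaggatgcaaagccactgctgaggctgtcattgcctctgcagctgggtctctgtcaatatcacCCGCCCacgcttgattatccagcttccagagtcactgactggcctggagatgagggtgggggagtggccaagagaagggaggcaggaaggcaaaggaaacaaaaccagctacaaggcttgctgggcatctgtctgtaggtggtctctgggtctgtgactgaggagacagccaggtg
The windows have the same content of G and C, 56%, with 9 CG dinucleotides for Scn9a and 2 for Scn7a. GGGCGG was found 1 time for Scn7a and 0 times for Scn9a, and neither TATAAA nor TGACGTCA was found in either window.

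The sodium channel beta subunits, single-pass proteins with an immunoglobulin fold outside the cell, differed in opposite directions between ages. Scn2b (ENSRNOG00000016221), which binds the pore through a disulfide bond, was at 1.10 and 0.473 CPM in neonates and 2.602 and 2.70 CPM in adults. Its log2 fold change was -1.75 (SE 0.44, edgeR adjusted p = 0.0071), and -2.47 without neonate replicate 1. Scn2b entered the test through the adult libraries alone. Scn3b, a noncovalently bound subunit abundant in early neurons, was at 75.0 and 74.8 CPM in neonates and 54.7 and 42.4 CPM in adults (log2 fold change 0.63, SE 0.12, edgeR adjusted p = 0.00183), or 1.54-fold higher in neonates. Scn4b, which is known from fast-spiking neurons and heart, was below the filter with 28 and 22 counts in neonates and 2 and 3 in adults. Its ratio was 11.3-fold, with an exact 95% counting interval from 4.52 to 36.2. In the fit without a filter on low counts, Scn4b passed as higher in neonates (log2 fold change 3.40, SE 0.92, edgeR adjusted p = 0.014). It was the only one of the 11 subunits under the filter to pass there.

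Scn2b and Scn4b are direct neighbours on chromosome 8 of the RefSeq gene table and had opposite differences between ages, so their promoters are shown (GRCr8, plus strand, chr8:54322133-54322432 for Scn2b and chr8:54343623-54343922 for Scn4b). No letters are in capitals, as neither window holds any of the motifs searched.
Scn2b: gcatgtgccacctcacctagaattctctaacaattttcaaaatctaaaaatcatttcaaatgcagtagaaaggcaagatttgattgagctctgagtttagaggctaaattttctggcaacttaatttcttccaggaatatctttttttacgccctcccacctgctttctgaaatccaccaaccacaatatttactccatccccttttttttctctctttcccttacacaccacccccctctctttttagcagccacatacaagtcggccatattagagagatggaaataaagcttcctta
Scn4b: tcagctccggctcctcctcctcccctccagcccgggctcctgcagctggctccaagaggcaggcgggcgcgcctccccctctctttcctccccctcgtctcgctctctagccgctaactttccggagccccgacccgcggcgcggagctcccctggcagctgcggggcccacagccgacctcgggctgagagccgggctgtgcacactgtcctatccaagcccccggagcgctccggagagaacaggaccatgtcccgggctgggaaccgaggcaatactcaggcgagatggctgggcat
The Scn2b window is poor in G and C, 39% with 2 CG dinucleotides, and the Scn4b window rich, 70% with 24. Cacng4 lies between Cacng1 and Cacng5 on chromosome 10 and was the only one of them tested, and Cacng7 follows Cacng6 and Cacng8 on chromosome 1, both of which had at most 6 counts in any library.

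**Figure D4:**
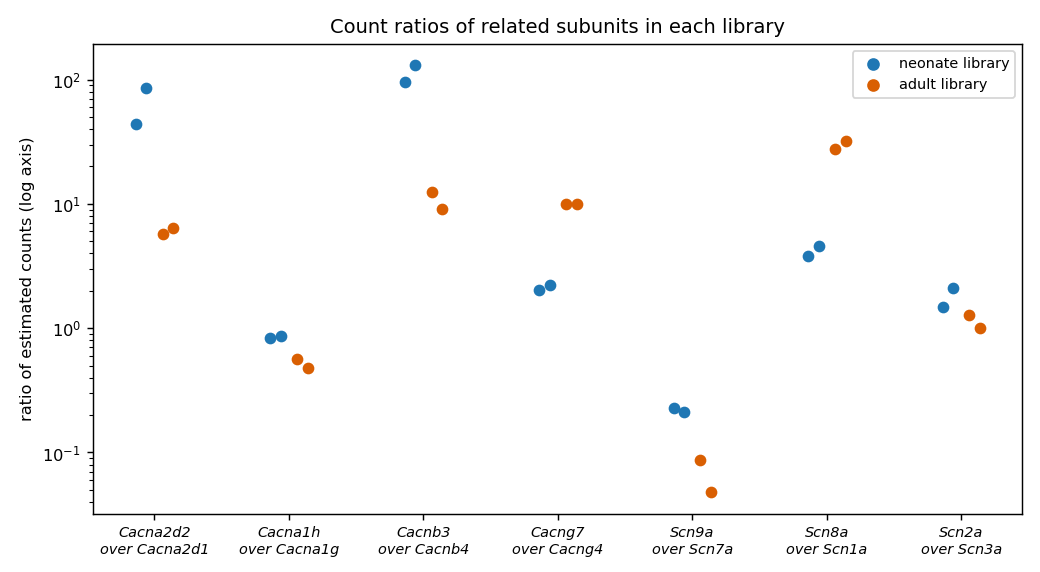
Ratio of the estimated counts of related subunits in each library (log axis, blue neonates, orange adults), with pairs chosen after their values were seen. Ratios to Cacna2d1, Cacnb4 and Scn7a are lower in both adult libraries, and those of Cacng7 to Cacng4 and Scn8a to Scn1a higher.

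Genes that bind or control these channels were taken from lists of 34 symbols, of which 31 were found in the table and 27 were tested. At an edgeR adjusted p under 0.05, 6 rose and 12 fell in neonates, against 31.2% and 31.1% of all genes tested, and the median log2 fold change over the list was -0.11. At a fold change of at least 2, 3 of the 27 were higher and 5 of the 27 lower, against 7.68% and 13.2% of all genes tested. The sodium leak channel complex moved together. Nalcn, a relative of these pores that opens at rest and sets excitability, was at 23.9 and 28.1 CPM in neonates and 125 and 112 CPM in adults (log2 fold change -2.19, SE 0.11, edgeR adjusted p = 2.03e-06). Its partner Unc80 was at 11.7 and 12.5 CPM in neonates and 34.1 and 36.8 CPM in adults (log2 fold change -1.55, SE 0.11, edgeR adjusted p = 8.46e-06), and Unc79 was at -0.57. All 3 were lower in both neonatal libraries than in both adult libraries.

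Of the scaffold that anchors channels at nodes and membranes, 3 of 5 genes were lower in neonates (Ank2, Ank3 and Nfasc) and 2 did not pass. Ank2, encoding ankyrin-B, was at 39.8 and 35.5 CPM in neonates and 92.8 and 93.1 CPM in adults (log2 fold change -1.30, SE 0.093, edgeR adjusted p = 9.52e-06). Stac, an adaptor that holds L-type channels in the membrane, was at 15.5 and 18.9 CPM in neonates and 43.6 and 37.7 CPM in adults (log2 fold change -1.24, SE 0.13, edgeR adjusted p = 5.09e-05). Rest, the repressor that keeps neuronal genes such as Scn2a silent in other cells, was at 5.27 and 4.51 CPM in neonates and 8.71 and 11.6 CPM in adults. Its log2 fold change was -1.05 (SE 0.23, edgeR adjusted p = 0.0033), and -0.83 with an adjusted p of 0.051 without adult replicate 2. Of the 2 active zone tethers tested, Rimbp2 was lower in neonates, at -0.66, and Rims2 did not pass.

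Higher in neonates were Cabp1, Fgf13 and S100a10. Cabp1, a calmodulin-like protein that alters inactivation of calcium channels, was at 21.0 and 19.5 CPM in neonates and 8.47 and 7.64 CPM in adults (log2 fold change 1.33, SE 0.14, edgeR adjusted p = 6.65e-05). Fgf13, an intracellular FGF homologue that binds the tail of sodium channel pores, was at 35.5 and 30.7 CPM in neonates and 18.7 and 11.4 CPM in adults (log2 fold change 1.14, SE 0.20, edgeR adjusted p = 0.0011). S100a10, which aids the transport of a sodium channel to the membrane, was at 203 and 230.2 CPM in neonates and 100.4 and 105 CPM in adults (log2 fold change 1.08, SE 0.086, edgeR adjusted p = 1.54e-05). Scaled to library size alone, with its common shift, Fgf13 (0.89, edgeR adjusted p = 0.0039) and S100a10 (0.84, edgeR adjusted p = 1.23e-04) passed the adjusted p but were under 2-fold. The RGK GTPases, inhibitors of calcium channels, had 1 gene higher (Rrad), 1 lower (Gem) and 2 that did not pass. Of the FGF homologues tested, Fgf13 was higher, Fgf11 lower and 1 did not pass, and of the 3 calmodulin and Cabp1 genes, 2 were higher, Cabp1 among them, and 1 did not pass. The remaining 6 partner genes had 2 higher (Cbarp and S100a10), 2 lower (Nedd4l and Rest) and 2 that did not pass. Rrad did not pass without neonate replicate 2 or either adult replicate, with adjusted p of 0.051 to 0.11. Fgf11 did not pass without neonate replicate 1 (-0.33, edgeR adjusted p = 0.12), adult replicate 1 (adjusted p = 0.13) or adult replicate 2 (adjusted p = 0.088). Nedd4l did not pass without adult replicate 1 (-0.25, edgeR adjusted p = 0.15).

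**Figure D5:**
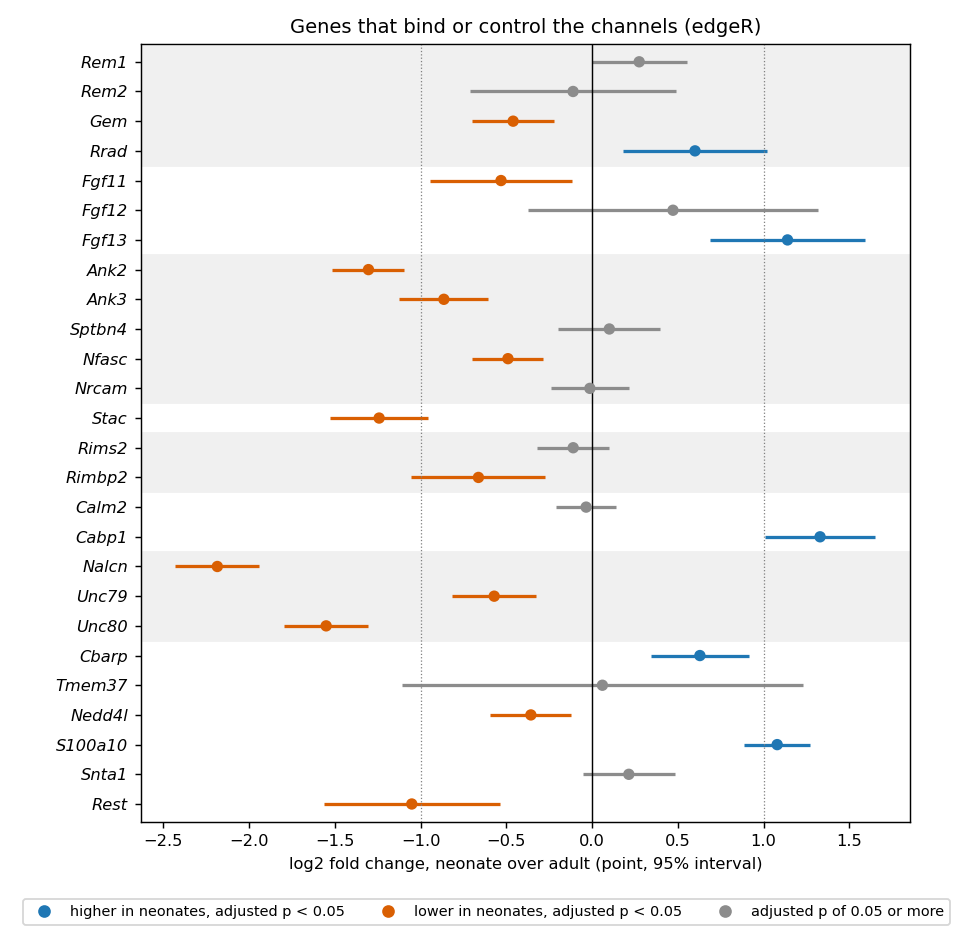
Log2 fold change, neonate over adult, of 26 of the 27 genes tested that bind or control the channels (point) with its 95% interval from edgeR (line), shaded by list, coloured as in the plot of subunit changes. Nalcn, Unc80, Ank2 and Stac lie farthest toward adults, and Cabp1, Fgf13 and S100a10 farthest toward neonates.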

How the data were processed

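RNA of pooled CBs of neonatal (day 5) and adult (day 21) rats was analysed, with 2 libraries per age grouped by the sample titles. The authors deposited estimated counts per gene, neither normalised nor filtered. Reads had been mapped with STAR 2.6.1d to Rnor_6.0 (release 102) and quantified with Salmon, version 1.5.2 in the submitters' processing notes. The paper names Ensembl 84 for the gene level.

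Counts were rounded and analysed with edgeR 4.0.16 in R 4.3.3, with limma 3.58.1 and DESeq2 1.42.0 as alternatives. By symbol or synonym, 636 genes annotated as other than protein-coding in RefSeq's table (GRCr8) were removed. A gene needed 1 CPM or more in 2 or more libraries, which left 13843. After TMM normalisation, ages were compared by the quasi-likelihood test, without covariates, with Benjamini-Hochberg adjustment. A gene rose or fell at an adjusted p under 0.05 and was called at a fold change of at least 2 besides. SE is the log2 fold change over the square root of F.

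Where p-values compare pooled libraries, they measure the spread between pools. Totals of 36286191 to 39476110 counts limit low genes, where intervals cover counting error only. Some genes are counted in the totals but not reported here by name. The other subunit genes that passed are given with full statistics, those that did not by interval or counts, and the 8 partner genes with the largest change among those that passed are named. The symbol rule uses no value, but the choice of this gene family, and of the lists, was made with earlier results of these data known. Neighbouring genes and promoters come from RefSeq (GRCr8). The procedure was tested on simulated data. Alternatives were other normalisations, filters and tools, no minimum fold change, all genes kept, a replicate block and each library left out.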

Additional observations from a re-analysis of the deposited data

How the results depend on the processing

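Counts of genes called held within 1.5 times under RLE size factors, DESeq2, limma-voom and with all genes kept, and with each library left out in turn. With no minimum fold change, 7 calcium channel subunits, 2 sodium channel subunits and 6 partner genes were higher in neonates, and 5 sodium channel subunits and 12 partner genes were lower. With a mean of at least 5 CPM, 1 calcium channel subunit was lower and 0 sodium channel subunits were higher by edgeR, because Cacna2d4, Cacnb4, Cacng3 and Scn1a were then not tested. None of the 8 sodium channel subunits tested there reached 2-fold toward neonates, so 0 would be called at an unadjusted p under 0.05 as well, and no other tool was run with that filter. Without a filter on low counts, 2 sodium channel subunits were higher, as Scn4b entered. Scaled to library size alone, 1 partner gene was higher in place of 3, since with the median of all genes at -0.25 Fgf13 and S100a10 were under 2-fold.

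Among values of single subunits under the alternatives, 324 stayed on their side of an adjusted p of 0.05, 13 no longer passed and 3 newly passed. For partner genes these were 305, 10 and 6. No gene that passed changed sign, while Cacna1b, Cacna1c, Cacna1d, Cacna1i, Cacna2d3, Cacng2, Scn2a and Scn9a, which did not pass, took either sign, the first 3 of them with library size alone. Replicate numbers are shared between the ages, but deviations of same-numbered libraries did not go together (r = -0.015 across genes), so the libraries share only a number. With a replicate block, 2 calcium channel subunits were called higher and 4 lower, and Cacna1b passed (log2 fold change 0.24, edgeR adjusted p = 0.033). Shares of counts corrected for coding length were not run, since no coding lengths were used here. Depth limits the 11 subunits that missed the filter, of which only Scn4b passed in the fit without it.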
